A study of Homo sapiens with 10 samples.

Results

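OVMANA is a human ovarian cancer cell line, and it is set here against 6 other ovarian cancer lines in the same nanopore RNA sequencing series. The OVMANA members are 1 library of 10 in the series, chosen by the cell line and instrument given in the labels. The comparison uses the 8 libraries run on the PromethION, a high-output nanopore instrument that reads single molecules through protein pores: 2 of IGROV-1, counted as a single line, and 1 each of OVMANA, COV362, COV504, OVKATE, OVTOKO and SK-OV-3. The 2 IGROV-1 libraries run on the smaller MinION instrument are not used here. The series was made to benchmark a program that quantifies transcripts from long reads.

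No line carries a treatment, an edited gene or a time point in the labels, and all libraries were made from total RNA with a column kit and a ligation sequencing kit. A difference between OVMANA and the other lines is therefore a difference between lines and not the effect of a condition. The labels give no tumour type. As background, OVMANA was derived from an ovarian clear cell carcinoma, a tumour type that often arises from endometriosis and expresses secreted products such as osteopontin. Osteopontin, encoded by SPP1, binds integrins and CD44 on other cells. Clear cell tumours are also known for inflammatory cytokines and for enzymes that detoxify peroxides.

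The 8 libraries held 1729782 to 2552499 estimated counts, and OVMANA held 1871485. Levels are CPM, the counts of a gene scaled to equal library totals, with the gene's transcripts summed. A count of 0 in OVMANA allows up to 3 counts, or 1.60 CPM, and intervals and floors cover counting error only. The 2 IGROV-1 libraries stood apart in mitochondrial transcripts, which took 13.02% and 15.2% of their counts, against 2.82% in OVMANA and 3.65% to 4.54% in the rest. OVMANA had the fewest genes at 1 count or more, 13176, against 13517 to 15524 in the other libraries. Across 13582 genes its Spearman correlation was highest with OVTOKO (0.817) and lowest with OVKATE (0.741), which describes the libraries and was not tested.

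The 3 genes taken as marks of OVMANA were all highest in it. SPP1 stood at 16461 CPM in OVMANA, 7191 in OVTOKO, 829 in SK-OV-3, 249.9 in COV362, 183 in IGROV-1, 23.6 in COV504 and 8.90 in OVKATE. No other gene held as many counts in the OVMANA library. OVTOKO was the next line, at a level 2.29-fold lower (95% interval for counting 2.242 to 2.338). EPCAM, an adhesion protein of epithelial cells, reached 1814 CPM in OVMANA, with 817 in OVKATE, 365 in COV504, 158 in COV362, 45.6 in SK-OV-3, 8.67 in OVTOKO and 0.642 in IGROV-1. CXCL5, a chemokine that attracts neutrophils through CXCR2, was at 3010 CPM in OVMANA, 211 in OVTOKO, 34.7 in COV504 and 1.57 in COV362, and at 0 in IGROV-1, SK-OV-3 and OVKATE. Its lead over OVTOKO was 14.3-fold (95% interval 12.8 to 15.9). No line overlapped OVMANA for these genes, yet the other lines varied so widely among themselves that edgeR's quasi-likelihood test gave an adjusted p of 0.89 for each.

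The listed markers of other cells were near absent from OVMANA. Of 7 leukocyte markers measured under identifiers of their own, 5 were at 0, including PTPRC and CD3E, and the list summed to 2.14 CPM. Of 8 fibroblast and endothelial markers, 7 were at 0, and the sum was 0.534 CPM. All 4 erythroid markers were at 0. These lists are short, and some genes outside them went the other way. CD7 was at 27.25 CPM, ICAM2 at 142 CPM and SOX18 at 45.95 CPM in OVMANA, each at least 4-fold above the next line.

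The largest excesses in OVMANA concerned an aspartic protease, a glutathione peroxidase, an apolipoprotein, a retroviral envelope gene and a phosphatase. These were the 5 genes that edgeR called higher, out of 12738 tested (0.0393%), when the spread between the 6 other lines served as the error. The labels do not say that libraries came from separate cultures, and OVMANA has no replicate, so each p sets a single library against the spread between lines and assumes that OVMANA varies like them. An exact permutation test of 1 line against 6 cannot give a p below 0.14.

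**Figure D1:**
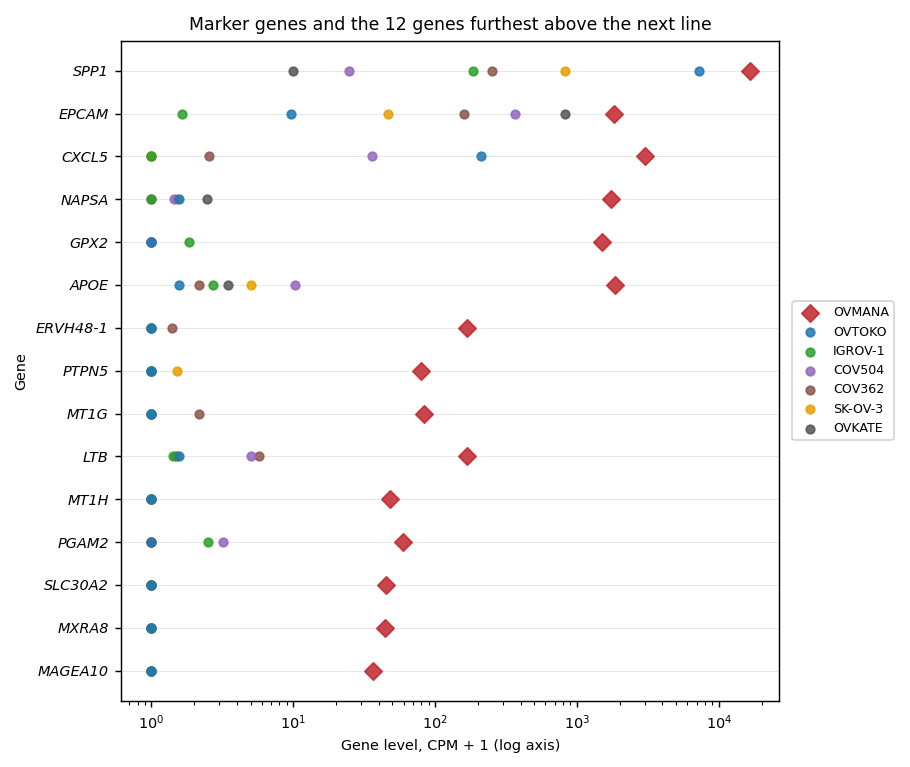
Level of the 3 marker genes and of the 12 genes with the largest ratio of OVMANA to the next line (levels under 3 counts taken as 3 counts), as CPM + 1 on a log axis, with 1 symbol for each line (IGROV-1 as the mean of 2 libraries). The OVMANA diamonds lie to the right of every other line in all 15 genes, from 35.3 CPM for MAGEA10 to 16461 CPM for SPP1.

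NAPSA encodes napsin A, a protease of lung and kidney epithelium that pathologists use as a clear cell marker. It lies on chromosome 19 at 50358477 to 50365830 (GRCh38, minus strand). NAPSA reached 1739 CPM in OVMANA, against 1.48 in OVKATE, 0.578 in OVTOKO, 0.506 in SK-OV-3, 0.445 in COV504 and 0 in COV362 and IGROV-1. The ratio to OVKATE, which held 3 counts, was 1172 (95% interval 401 to 5687), and edgeR's log2 difference was 11.96 (SE 0.95, adjusted p = 0.0096). All NAPSA counts in OVMANA were assigned to the protein-coding transcript NAPSA-201.

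GPX2, a glutathione peroxidase of gut epithelium that reduces peroxides, lies on chromosome 14 at 64939152 to 64942905 (minus strand). It stood at 1511 CPM in OVMANA and at 0.857 in IGROV-1, with 0 in the other 5 lines. The ratio to IGROV-1 was 1763 (95% interval 688 to 6476), the log2 difference 12.54 (SE 1.05) and edgeR's adjusted p 0.0098. IGROV-1 held 4 counts of GPX2 over its 2 libraries, so the gene was near absent outside OVMANA. GPX2-201 took 92.8% of its counts in OVMANA (95% Wilson interval 91.8% to 93.7%) and GPX2-205, which starts further upstream, took the other 7.16%.

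APOE, the lipid carrier apolipoprotein E, lies on chromosome 19 at 44905754 to 44909393. It was at 1848 CPM in OVMANA, 9.34 in COV504, 4.05 in SK-OV-3, 2.47 in OVKATE, 1.71 in IGROV-1, 1.18 in COV362 and 0.578 in OVTOKO. Its ratio to COV504 was 198 (95% interval 129 to 320.0), with a log2 difference of 9.31 (SE 0.90) and an adjusted p of 0.020 by edgeR. OVMANA was the single line in which APOE passed 10 CPM.

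ERVH48-1, an endogenous retroviral envelope gene annotated as a long noncoding RNA in GENCODE 29 and known as suppressyn, lies on chromosome 21 at 42916803 to 42925646. It held 166 CPM in OVMANA and 0.392 in COV362, where that was 1 count, and 0 elsewhere, a ratio of 424 with a 95% interval of 75.6 to 16807 (edgeR log2 difference 10.58, SE 0.81, adjusted p = 0.0096). PTPN5, a tyrosine phosphatase best known from neurons, lies on chromosome 11 at 18727928 to 18792721 and stood at 78.5 CPM in OVMANA. SK-OV-3 had 1 count of it (0.506 CPM) and the other 5 lines none, a ratio of 155 with an interval of 27.4 to 6167 (log2 difference 9.48, SE 0.94, edgeR adjusted p = 0.020). In OVMANA, PTPN5 counts were split between PTPN5-201 (53.8%) and PTPN5-205 (44.7%).

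These calls depend on which lines define the spread. Without COV362 edgeR called none of the 5 genes, with adjusted p of 0.098 (NAPSA), 0.115 (GPX2), 0.146 (APOE and PTPN5) and 0.542 (ERVH48-1). APOE also missed the threshold without OVKATE, OVTOKO, SK-OV-3 or IGROV-1 (0.0514 to 0.117), PTPN5 without OVKATE, OVTOKO, SK-OV-3 or COV504 (0.0721 to 0.482), and GPX2 without IGROV-1 (0.21).

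7 further genes completed the 12 with the largest ratio to the next line, and edgeR called none of them (adjusted p 0.20 to 0.55). For this order a level under 3 counts in another line was set to 3 counts, whereas the ratios printed here use the measured level. MT1G and MT1H encode metallothioneins, small proteins that bind zinc and copper. MT1G was at 82.8 CPM in OVMANA and 1.18 in COV362, with 0 in the other 5 lines, a ratio of 70.5 (95% interval 23.7 to 345). MT1H was at 47.0 CPM in OVMANA and 0 in every other line, at least 27.1-fold higher against the largest floor of 3 counts in a line. Reads of metallothionein genes can be shared between near-identical copies, so their split is uncertain. SLC30A2, a zinc exporter, was at 43.8 CPM in OVMANA and 0 elsewhere, at least 25.3-fold higher.

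LTB, the cytokine lymphotoxin beta, stood at 166 CPM in OVMANA, 4.70 in COV362, 4.004 in COV504 and under 1 CPM in the other 4 lines, a ratio of 35.3 (95% interval 19.9 to 69.2). PGAM2, the muscle form of phosphoglycerate mutase, was at 58.8 CPM in OVMANA, 2.22 in COV504, 1.501 in IGROV-1 and 0 elsewhere, a ratio of 26.4. MXRA8, a matrix adhesion protein, and MAGEA10, a cancer testis antigen of the X chromosome, were at 43.3 and 35.3 CPM in OVMANA. Both were at 0 in the other 6 lines, at least 24.96-fold and 20.3-fold lower.

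Over the whole table, 121 genes lay at least 4-fold above the next line, out of 9273 with 10 counts or more in OVMANA (1.3%). Of these, 112 were protein-coding. The list includes CXCL5, TFPI2, NFKB2 and SLC39A10, which are described below.

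A different error gives many more calls. With the spread between the 2 IGROV-1 replicates as the error, edgeR called 2071 of the 12738 genes higher in OVMANA than the mean of the 6 other lines (16.3%) and 933 lower (7.32%). The coefficient of biological variation was 10.74% between those replicates and 80.16% between lines. Such a call says that OVMANA differs from the average fitted log level of the other lines by more than repeat libraries of 1 line do. It does not place OVMANA outside their range. Lines at or near 0 pull that average down, so the mean named above is not the mean CPM. CD44 and LCN2, described below, were at 0 in OVMANA and 1 other line and were not called lower. A list with 0 lower calls can thus hold genes far below most lines. Calls on that error for SPP1, EPCAM, CXCL5 and the 12 genes above are no separate support. These genes were chosen with results of these same data known. In the lists that follow, calls are given on both errors. The shares over all genes to set beside their counts are the 16.3% and 7.32% above. For ranks they are 10.6% of genes highest in OVMANA and 16.8% lowest.

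Of the 16 clear cell markers, 12 were tested. NAPSA was the single call on the spread between lines, 8 were called higher and 0 lower on the replicate error, and 4 (SPP1, TFPI2, NAPSA and DPP4) were highest in OVMANA, against 10.6% of all genes tested. SPP1, a gene taken as a mark of OVMANA, is among the 4, so that count is partly set by the choice of marks. The median log2 difference was 0.56, against -0.25 over all genes. TFPI2, a secreted inhibitor of serine proteases and a serum marker of clear cell carcinoma, was at 2431 CPM in OVMANA, 400.0 in COV504, 324 in SK-OV-3, 42.7 in COV362, 20.8 in OVKATE, 19.1 in OVTOKO and 0 in IGROV-1. OVMANA was the highest line for it, as for DPP4, a surface peptidase, at 312 CPM against 183 in IGROV-1 and at most 5.57 elsewhere. ANXA4, a calcium-dependent membrane-binding annexin, was higher in OVTOKO (1960 CPM) than in OVMANA (798). GPX3, a secreted glutathione peroxidase, was higher in OVKATE (1155 CPM) than in OVMANA (336).

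Chemokines that bind CXCR1 and CXCR2 differed from gene to gene. Of 9 listed genes, 6 were tested, none was called on the spread between lines, 4 (CXCL5, CXCL1, CXCL2 and CXCL3) were called higher on the replicate error, and OVMANA was the highest line for 3. Those 3 were CXCL5, CXCL2 at 49.7 CPM (OVTOKO 25.4) and CXCL3 at 15.5 CPM (COV504 9.79). CXCL5 was taken as a mark of OVMANA, so its place among them was set by that choice. Of all genes tested, 10.6% were highest in OVMANA. CXCL1 was at 264.5 CPM in OVMANA, below OVTOKO (382) and COV504 (301). CXCL8, the best known neutrophil chemokine, was at 4.27 CPM in OVMANA, against 138 in COV504 and 35.3 in OVTOKO. Both receptors, CXCR1 and CXCR2, were at 0 in all 7 lines. All chemokines of the list were at 0 in IGROV-1.

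CXCL5 and CXCL1 lie in the chemokine cluster of chromosome 4, and their promoters are shown because CXCL5 set OVMANA apart while CXCL1 did not. Each line gives the 250 bases before the gene start in RefSeq (GRCh38.p14), CXCL5 at chr4:73998678-73998927 on the minus strand and CXCL1 at chr4:73869143-73869392 on the plus strand. Capitals mark matches to GGNNNTTCC, a core of sites for the transcription factor NF-kB, searched on both strands.
CXCL5: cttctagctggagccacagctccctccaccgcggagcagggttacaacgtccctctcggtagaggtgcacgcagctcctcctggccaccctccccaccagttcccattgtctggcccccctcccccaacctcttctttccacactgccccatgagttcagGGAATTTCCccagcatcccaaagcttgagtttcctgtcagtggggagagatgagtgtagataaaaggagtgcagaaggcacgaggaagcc
CXCL1: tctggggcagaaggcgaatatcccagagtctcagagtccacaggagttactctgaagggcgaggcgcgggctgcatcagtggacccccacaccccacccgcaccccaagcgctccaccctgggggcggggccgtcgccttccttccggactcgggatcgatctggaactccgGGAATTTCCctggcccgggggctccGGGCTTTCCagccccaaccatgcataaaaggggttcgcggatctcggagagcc
CXCL5 held 1 match, which starts at -90 from the RefSeq gene start, and CXCL1 held 2, at -78 and -53. The counted transcript CXCL5-201 starts at 73998779, inside the printed CXCL5 window and upstream of its match. In that annotation the CXCL5 match therefore lies within the transcript. The match at -78 has the same letters as the one of CXCL5, and those letters match the motif on both strands. Of 35116 promoter windows of this length, 17.1% hold the motif. A match describes the letters and does not show that the factor binds.

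Among inflammatory cytokines, 12 of 16 listed were tested, with no call on the spread between lines and 5 higher (IL18, IL6, LIF, CCL20 and TNF) and 0 lower on the replicate error. OVMANA was the highest line for IL18, IL6 and CCL20 and the lowest for CSF1, against 10.6% and 16.8% of all genes. IL18, a cytokine activated by the inflammasome, was at 417 CPM in OVMANA, 178 in OVTOKO, 105 in SK-OV-3, 93.5 in OVKATE, 53.8 in COV504, 43.1 in COV362 and 0.215 in IGROV-1. IL6 was at 91.9 CPM in OVMANA and 67.6 in OVTOKO, but 2.67 in COV504, 1.57 in COV362 and 0 in SK-OV-3, OVKATE and IGROV-1. OVMANA and OVTOKO thus shared IL6, and LIF, a cytokine of the same family, was likewise highest in these lines, at 72.3 CPM in OVTOKO and 56.1 in OVMANA. CCL2, the main monocyte chemokine, was at 0 in OVMANA and at 384 CPM in COV504.

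Genes of NF-kB feedback were mixed as well. Of 14 tested, none was called on the spread between lines, 6 were called higher and 0 lower on the replicate error, and OVMANA was the highest line for NFKB2, NFKBIA, BIRC3 and TNFAIP3. NFKB2, which encodes the p100 precursor of the noncanonical pathway, was at 78.01 CPM in OVMANA and between 4.56 (SK-OV-3) and 15.6 (OVTOKO) in the others, with no overlap (edgeR adjusted p = 0.38). NFKBIA, the inhibitor that retains NF-kB in the cytoplasm, was at 182 CPM in OVMANA and 129.5 in OVTOKO, with 38.0 to 107 elsewhere. NFKBIZ, a nuclear cofactor of NF-kB, was highest in OVTOKO (166 CPM), with 142 in OVMANA. LCN2, an iron-siderophore binding protein often induced with this pathway, was at 0 CPM in OVMANA and IGROV-1, 33.4 to 144 in 4 lines and 1848 in OVKATE. C3, the central complement component, stood at 70.5 CPM in OVMANA and 1087 in OVTOKO.

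**Figure D2:**
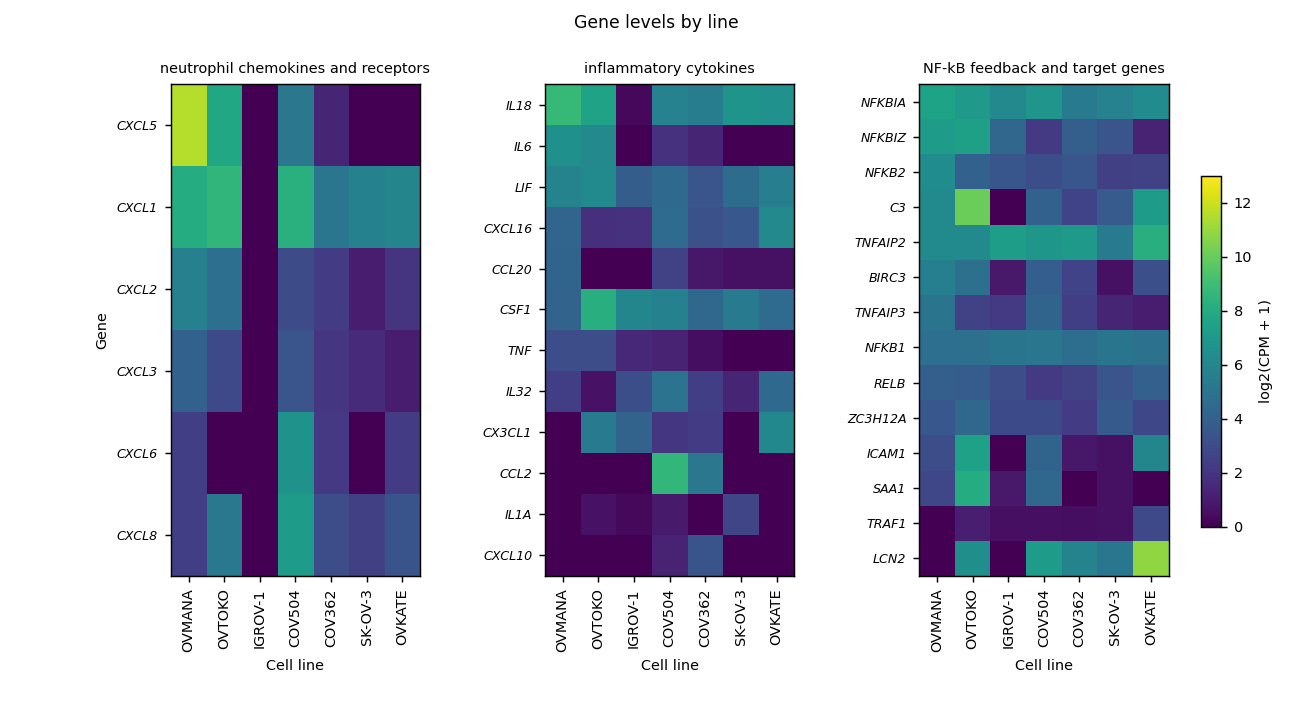
Heat maps of log2(CPM + 1) for the tested members of 3 gene lists in the 7 lines, genes in rows and lines in columns. OVMANA is brightest for CXCL5 (3010 CPM) and IL18 (417 CPM) and dark for LCN2 and CCL2, both at 0.

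The receptors of osteopontin gave no call on the spread between lines among 7 tested, with 3 higher (ITGB1, ITGAV and ITGB6) and 1 lower (ITGB5) on the replicate error. ITGAV and ITGB1 encode integrin subunits that bind it. ITGAV was at 224 CPM in OVMANA, the highest line, and at 109.8 (OVKATE) to 197 (OVTOKO) in the others. ITGB1 was at 613 CPM in OVMANA, within the range of the others (132 to 1204). CD44, the receptor for hyaluronan and osteopontin, was at 0 in OVMANA and OVKATE, against 37.5 CPM in IGROV-1, 427 in COV362, 480.1 in COV504, 635 in SK-OV-3 and 657 in OVTOKO. The pair of lines with the most SPP1 thus lay at opposite ends for CD44.

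Several epithelial genes had their highest level in OVMANA, and many mesenchymal genes were at 0 there. Of 23 epithelial adhesion and lineage genes tested, 17 were called higher and 0 lower on the replicate error, and none on the spread between lines. OVMANA was the highest line for 6 of the 23, against 10.6% of all genes, and the list's median log2 difference was 1.7, against -0.25 over all genes. EPCAM, a gene taken as a mark of OVMANA, is among the 6, so that count is partly set by the choice of marks. The list summed to 10725 CPM in OVMANA and 10924 in COV504. CD24, a surface glycoprotein, was at 3103 CPM in OVMANA, 1714 in OVTOKO, 908 in IGROV-1, 375 in SK-OV-3, 214 in OVKATE, 169 in COV362 and 152 in COV504. KRT19, a keratin of simple epithelia, was at 1833 CPM in OVMANA and 1506 in OVKATE, but 0.578 in OVTOKO. CDH1, which encodes E-cadherin, was at 214 CPM in OVMANA and 151 in OVKATE, at 59.2 in COV504 and at most 5.06 in the other 4 lines. ESRP1, a splicing factor of epithelial cells, was at 87.1 CPM in OVMANA and 84.1 in OVKATE, and at 0 in OVTOKO, IGROV-1 and SK-OV-3. KRT18 was highest in COV504 (4627 CPM, OVMANA 857). GRHL2, a transcription factor of epithelial junctions, was at 0 in OVMANA and at most 24.2 CPM (OVKATE) elsewhere.

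Of 20 mesenchymal genes, 13 were at 0 in OVMANA, against 0 to 9 in the other lines. 18 were tested, none was called on the spread between lines, 0 were higher and 4 lower (VIM, COL6A1, COL6A2 and LOX) on the replicate error, and the fitted median log2 difference was -7.28. That median depends on how the fit treats zeros and is no bound. OVMANA was the lowest line for 2 of the 18 (COL6A1 and COL6A2), against 16.8% of all genes, and the list summed to 894 CPM in OVMANA and 604 in IGROV-1. SPARC, a matricellular protein, was at 0 in OVMANA and IGROV-1, 4.05 CPM in OVTOKO, 313 in COV362, 510.3 in COV504, 843 in OVKATE and 2043 in SK-OV-3. FN1, fibronectin, was at 0 in OVMANA and OVKATE and at 9.25 (OVTOKO) to 782 CPM (SK-OV-3) in the others. TWIST1 and CDH2, a regulator and a cadherin of mesenchymal cells, were at 0 in OVMANA, and each was also at 0 in IGROV-1 or OVTOKO. VIM was present at 869.9 CPM in OVMANA, within the range of the other lines (351 in OVKATE to 5964 in SK-OV-3). COL6A1, a collagen VI chain, was lowest in OVMANA at 10.2 CPM, with 18.3 to 169.5 in the others.

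**Figure D3:**
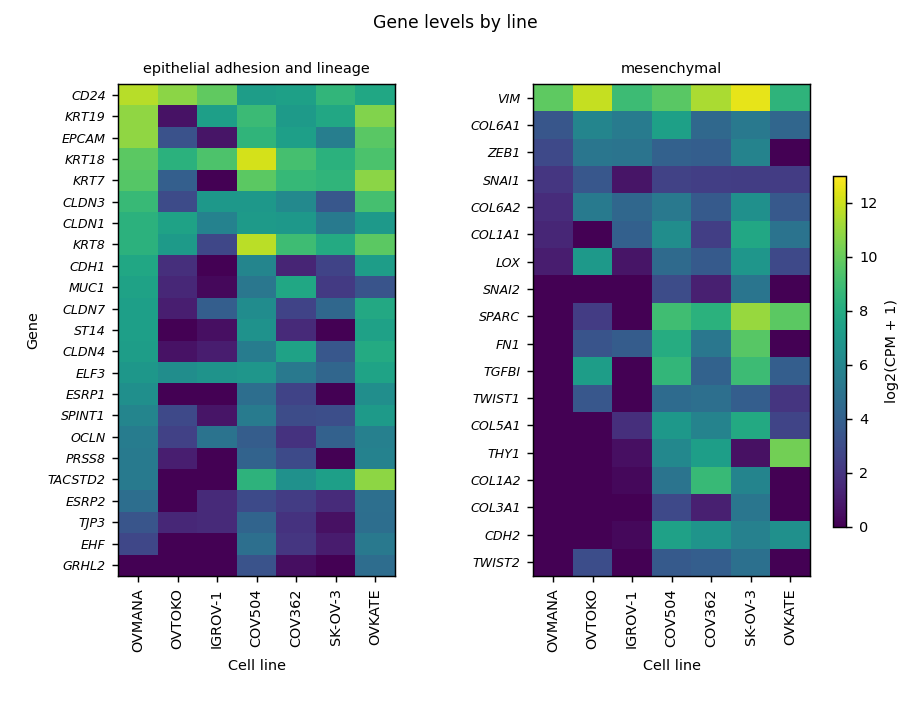
Heat maps of log2(CPM + 1) for 23 epithelial and 18 mesenchymal genes in the 7 lines, genes in rows and lines in columns. The OVMANA column is bright for CD24, KRT19 and EPCAM (1814 to 3103 CPM) and dark for most mesenchymal genes except VIM (869.9 CPM).

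3 more lists held no call on the spread between lines. Of 11 Müllerian and serous markers tested, 5 (FOLR1, PAX8, MSLN, SOX17 and MUC16) were higher and 0 lower on the replicate error. PAX8, the Müllerian lineage factor, was at 339.8 CPM in OVMANA, the highest line, against 84.1 (SK-OV-3) to 234 (OVTOKO) in the others. FOLR1, the folate receptor, was at 778 CPM in OVMANA and 2175 in OVKATE. WT1 and ESR1, factors of serous carcinoma, were at 0 in OVMANA, OVTOKO and IGROV-1, and WT1 also in SK-OV-3 and COV504. Of 15 SWI/SNF subunits tested, a chromatin remodelling complex that clear cell carcinomas often mutate, 1, SMARCC1, was higher and 0 lower on the replicate error. OVMANA was the highest line for 1 of the 15 subunits and the lowest for 4, against 10.6% and 16.8% of all genes. The subunits with the highest levels in OVMANA were ACTL6A (87.1 CPM), SMARCB1 (81.8), BRD7 (75.9) and SMARCA4 (57.2), and BRD7 was at 102 to 157 CPM in the other lines. ARID1A was at 46.5 CPM in OVMANA, within the range of the others (26.6 to 109), and these counts carry no information on mutation. Of 12 coagulation and fibrinolysis genes tested, 3 (ANXA2, TFPI2 and PROCR) were higher and 2 (S100A10 and PLAUR) lower on the replicate error. PROCR, the endothelial protein C receptor, was at 140.0 CPM in OVMANA, 107 in OVTOKO and at most 23.5 elsewhere.

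The genes furthest below the other lines in OVMANA included a secreted glycoprotein, a tubulin, the thrombin receptor and a zinc importer. EdgeR called 0 of 12738 genes lower on the spread between lines (0%), with 368 lower at an unadjusted p under 0.05. DESeq2, an alternative count test, called 56 lower. None of the 10 genes named next was called by edgeR on the spread between lines. They were picked for their ratio in these same counts, so calls for them by DESeq2 or on the replicate error follow largely from that choice.

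**Figure D4:**
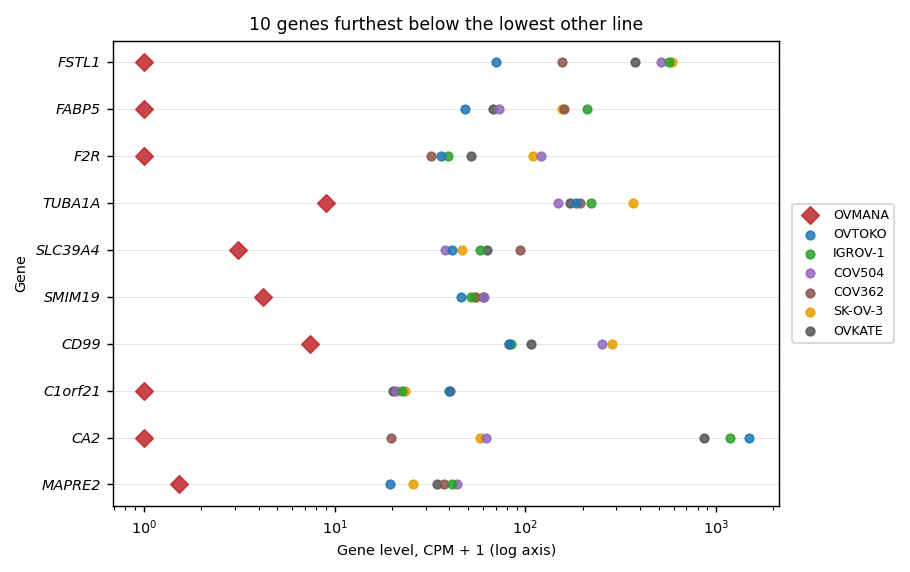
Level of the 10 genes with the largest ratio of the lowest other line to OVMANA (levels under 3 counts in OVMANA taken as 3 counts), as CPM + 1 on a log axis, with 1 symbol for each line. OVMANA lies to the left of all 6 other lines in each gene, at 0 CPM for FSTL1, FABP5, F2R, C1orf21 and CA2.

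FSTL1, a secreted glycoprotein related to follistatin, had no count in OVMANA. Its level was 69.4 CPM in OVTOKO, 154 in COV362, 374 in OVKATE, 513 in COV504, 567 in IGROV-1 and 586 in SK-OV-3. OVMANA was therefore at least 43.3-fold lower than OVTOKO, against the floor of 3 counts. F2R, the thrombin receptor PAR1, also had no count in OVMANA and was at 31.0 CPM in COV362, 35.3 in OVTOKO, 38.6 in IGROV-1, 50.9 in OVKATE, 109 in SK-OV-3 and 121 in COV504, at least 19.3-fold lower. CA2, carbonic anhydrase 2, was at 0 in OVMANA and spread widely in the others, from 18.8 CPM in COV362 to 1491 in OVTOKO, at least 11.7-fold lower. C1orf21 was at 0 against 19.3 to 39.2 CPM, at least 12.03-fold lower.

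FABP5, a fatty acid carrier, was at 0 in OVMANA and 47.4 (OVTOKO) to 211 CPM (IGROV-1) elsewhere, at least 29.6-fold lower. FABP5 has processed pseudogenes that can take its reads. TUBA1A, an alpha tubulin with near-identical paralogs, was at 8.01 CPM in OVMANA and 147 (COV504) to 366 (SK-OV-3) in the others, a ratio of 18.4 (95% interval 10.98 to 33.2). How reads were divided between such copies is not given in the sources used here.

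CD99, a surface glycoprotein involved in leukocyte transmigration, was at 6.41 CPM in OVMANA against 80.9 (OVTOKO) to 284 (SK-OV-3), a ratio of 12.6 (interval 7.002 to 25.01). SMIM19, a small membrane protein, was at 3.21 CPM in OVMANA and held a narrow range of 45.1 to 59.6 in the others, a ratio of 14.1 (interval 6.18 to 39.5). MAPRE2, which binds the growing ends of microtubules, had 1 count in OVMANA (0.534 CPM) and 18.5 (OVTOKO) to 42.7 CPM (COV504) elsewhere, a ratio of 34.6 at its measured level, with an interval of 5.78 to 1410. SLC39A4, a zinc importer of the plasma membrane, was at 2.14 CPM in OVMANA, 36.9 in COV504, 40.5 in OVTOKO, 45.6 in SK-OV-3, 57.0 in IGROV-1, 62.3 in OVKATE and 93.2 in COV362, a ratio of 17.3 (interval 6.50 to 64.9).

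In all, 32 of 5644 genes with at least 10 CPM in every other line were at least 4-fold below the lowest of them in OVMANA (0.567%). 9 of the 5644 had under 1 count in OVMANA (0.159%): FSTL1, FABP5, F2R, C1orf21, CA2, CSRP2, WLS, FHL1 and GLRB. CSRP2 and FHL1 encode LIM domain proteins, WLS carries Wnt proteins to the cell surface, and GLRB is a subunit of the glycine receptor. Each of the 32 was protein-coding, and they lay on 16 chromosomes, with 5 on X and 4 each on 8 and 12.

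GPX2 and MT1H belong to gene families with known response elements, so their promoters are printed here beside their levels. The first line gives chr14:64942746-64942995 on the minus strand and the second chr16:56669564-56669813 on the plus strand (RefSeq, GRCh38.p14, both strands searched). Capitals in the first mark a match to TGANNNNGC, a loose pattern for the antioxidant response element bound by NRF2. Capitals in the second mark TGCNCNC, a loose pattern for the metal response element bound by MTF1.
GPX2: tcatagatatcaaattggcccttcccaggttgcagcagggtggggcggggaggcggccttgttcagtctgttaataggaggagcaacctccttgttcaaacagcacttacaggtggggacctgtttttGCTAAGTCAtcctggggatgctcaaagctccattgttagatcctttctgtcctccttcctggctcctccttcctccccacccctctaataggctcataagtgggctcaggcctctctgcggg
MT1H: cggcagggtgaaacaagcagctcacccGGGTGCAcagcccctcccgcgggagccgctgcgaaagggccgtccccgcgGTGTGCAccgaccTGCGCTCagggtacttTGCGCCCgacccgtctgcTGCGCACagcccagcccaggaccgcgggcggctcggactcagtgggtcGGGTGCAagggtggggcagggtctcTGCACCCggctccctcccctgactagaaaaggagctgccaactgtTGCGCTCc
GPX2 held 1 match and MT1H 8. The counted transcripts GPX2-201 and GPX2-205 start at 64942813 and 64942905, both inside the printed GPX2 window. These patterns are short and loose, and 35.2% and 49.1% of all 35116 windows hold at least 1 match, so a single match is common. How many windows hold 8 matches was not counted.

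Transcript choice set OVMANA apart in few genes. Shares were compared in the 2416 genes with at least 50 counts in every line. Of their 10456 transcripts, 14 in 8 genes had a share in OVMANA at least 20 percentage points outside the range of the 6 other lines (0.134%), 7 of them higher and 7 lower. The leading transcript differed from the one that the 6 other lines agreed on in 13 gene identifiers (0.538%), the smallest number of any line (14 to 23 in the others). Some of the 13 join overlapping genes, so that their leading transcripts carry names of different genes. Some were near ties, such as PLA2G16-201 at 50% and PLA2G16-203 at 49.9% in OVMANA. Others were wider, such as SET-204 at 57.5% and SET-201 at 42.5%. EdgeR's usage test called 1 of 4300 genes (0.0233%), SCOC, and 12 on the replicate error.

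SCOC encodes a short coiled-coil protein of the Golgi that takes part in autophagy. SCOC-203, on chromosome 4 at 140343461 to 140382556, took 37.3% of the gene's 200 counts in OVMANA (95% Wilson interval 30.9% to 44.2%). Its share was 0.653% in OVKATE, 0.230% in COV504, 0.149% in COV362, 0.0390% in SK-OV-3, 0.0204% in IGROV-1 and 0.0185% in OVTOKO, and OVMANA did not overlap the other lines (edgeR Simes adjusted p = 0.0025, and 0.0022 to 0.046 over the alternatives that tested it). SCOC-211, the main form, took 57.2% in OVMANA and 83.7% to 95.7% elsewhere. SCOC-203 starts 30049 bases upstream of SCOC-211 and joins another first exon to the same exon 2, so that the annotated coding sequence has 366 bases in place of 477. The junctions of exons 1 and 2 are shown with exon 1 in capitals, from the GENCODE 29 transcripts.
SCOC-203: TTGCAGATGACATAGaccattcctcaagaa
SCOC-211: CGCCTCAAGCGGAAGaccattcctcaagaa

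GSTK1 encodes the kappa glutathione transferase of mitochondria and peroxisomes. GSTK1-205, at chromosome 7, 143263441 to 143269062, held 23.4% of 85 counts in OVMANA (interval 15.7% to 33.4%) and at most 0.700% (OVKATE) in any other line. EdgeR's usage test did not call it on the spread between lines (adjusted p = 0.22) and did on the replicate error (0.030). GSTK1-205 lacks exon 3 of GSTK1-201, a coding exon of 129 bases at 143264548 to 143264676, and its loss removes 43 codons without moving the reading frame. The exon is printed in capitals with 15 bases on each side in GSTK1-201, and the junction that replaces it in GSTK1-205 has the bases before the junction in capitals.
GSTK1-201: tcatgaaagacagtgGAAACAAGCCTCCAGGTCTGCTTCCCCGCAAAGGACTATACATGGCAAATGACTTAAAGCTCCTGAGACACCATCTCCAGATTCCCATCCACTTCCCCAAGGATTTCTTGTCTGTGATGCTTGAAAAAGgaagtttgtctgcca
GSTK1-205: TCATGAAAGACAGTGgaagtttgtctgcca

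UACA, a protein with ankyrin repeats and coiled coils, showed a comparable pattern. UACA-203 took 33.2% of 57 counts in OVMANA (interval 22.4% to 46.1%) against 1.26% (COV362) to 3.42% (IGROV-1) elsewhere, and it lacks 3 coding exons of UACA-201 with 327 bases. The junction after exon 6 is shown with exon 6 in capitals.
UACA-203: AATGCCAAAGATGTAcgaaatttgacacac
UACA-201: AATGCCAAAGATGTAgacgggcggacacca
The usage test did not call UACA on either error (edgeR adjusted p = 1 and 0.058).

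SLC39A10, a zinc importer, differed in level and in share. Its level was 354 CPM in OVMANA and between 26.2 (OVKATE) and 75.2 (IGROV-1) in the others. SLC39A10-202, which starts 381 bases upstream of SLC39A10-201 with another noncoding first exon and the same coding sequence, took 32.5% of 663 counts in OVMANA and 3.26% (SK-OV-3) to 5.37% (IGROV-1) elsewhere. SLC39A10-201 held 67.5% in OVMANA (interval 63.8% to 70.9%) and 94.6% to 96.7% in the others, which did not overlap (edgeR adjusted p = 1 on the spread between lines, 0.030 on the replicate error).

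In the other 4 genes, OVMANA took less or more of a form than any other line. MTA1, a subunit of the NuRD chromatin complex, used MTA1-201 for 9.63% of 57 counts in OVMANA (interval 4.34% to 20.02%) and for 40.9% (OVTOKO) to 79.9% (SK-OV-3) elsewhere. MTA1-202, which lacks a 51-base coding exon, took 77.3% in OVMANA and 16.05% (COV362) to 49.6% (COV504) elsewhere. It was also the leading form in OVTOKO (46.7%) and COV504. The 2 IGROV-1 libraries differed widely, with MTA1-201 at 63.9% and 41.5%. ZC3H7A, a zinc finger protein that binds RNA, used ZC3H7A-201 for 56.1% in OVMANA and at least 84.3% elsewhere, while ZC3H7A-202, with another first exon, took 31.4% against at most 4.53%. NDUFB1, a subunit of respiratory complex I, used NDUFB1-201 for 37.9% in OVMANA and 59.6% to 79.4% elsewhere. MARCH7, a ubiquitin ligase, used MARCH7-201 for 93.9% in OVMANA and 54.8% to 72.7% elsewhere. None of the 4 was called by edgeR's usage test on either error.

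**Figure D5:**
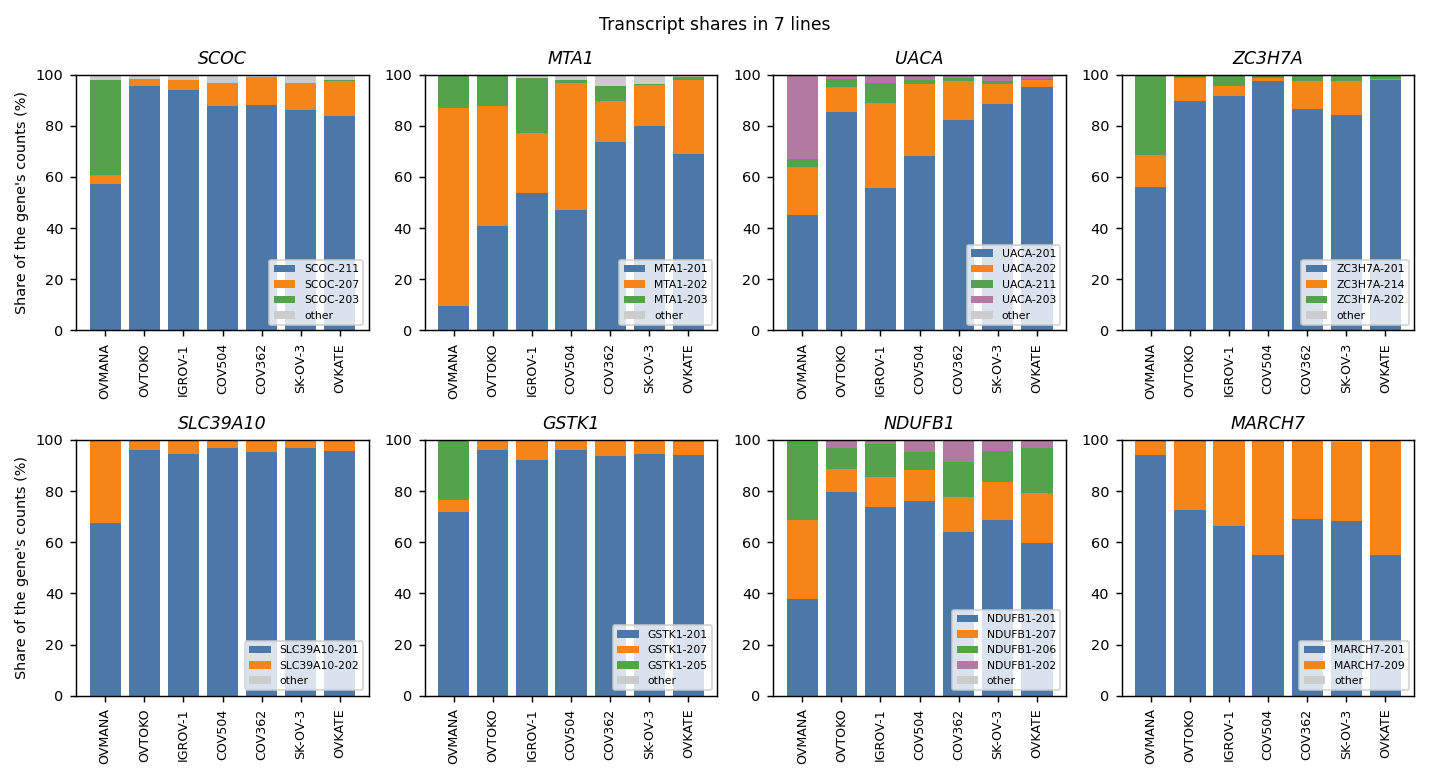
Share of each gene's counts taken by its transcripts, in percent, in 8 genes and 7 lines, with colours for transcripts and grey for the rest. OVMANA, the first bar of each panel, shows 37.3% of SCOC-203, 23.4% of GSTK1-205 and 33.2% of UACA-203, which are nearly missing from the other bars.

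The gene with the most counts did not share this pattern. SPP1-201 took 74.0% of 30806 SPP1 counts in OVMANA (interval 73.5% to 74.4%) and 65.6% (IGROV-1) to 71.3% (OVTOKO) in the lines with at least 50 counts. SPP1-203 took 24.5% in OVMANA and 27.0% to 32.1% in those lines.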

How the data were processed

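RNA of each cell line was sequenced on a nanopore PromethION, and reads were aligned with minimap2 2.24-r1122 to GRCh38, per the submitters' processing notes. No label names the quantifier or its settings. The authors deposited an estimated count and a TPM for each of 99493 transcripts. The deposited TPM equalled the CPM computed from the counts, with a gap of at most 5.6e-11, and is not divided by length. Estimated counts were summed over 57110 gene identifiers, 722 of which join overlapping genes (4502 transcripts) and are not named. 8 members of the gene lists lie in joined identifiers.

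Counts were rounded and tested with edgeR 4.0.16 (R 4.3.3; quasi-likelihood, TMM, filterByExpr, Benjamini-Hochberg over 12738 genes, two-sided, calls under 0.05), OVMANA against 6 lines with the IGROV-1 counts summed. Alternatives were the IGROV-1 replicate error, DESeq2 1.42.0, other size factors, no filter, no mitochondrial genes, and leaving out each line or IGROV-1 library. The IGROV-1 libraries differed by more than counting noise (chi-square per degree of freedom 4.05 over 10739 genes). On simulated data with 200 genes changed by a log2 difference of 5, 37% were recovered (12113 genes), and 0% at a difference of 3 (12090 genes).

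Named genes were the 3 markers, the 12 with the largest ratio to the next line (called genes first), the 10 with the largest ratio of the lowest other line to OVMANA (both ranked with levels under 3 counts set to 3 counts), and of each list the calls and up to 4 others highest in OVMANA. Members named beyond that, such as those at 0, were chosen after their values were seen. The 8 named transcripts had the shares furthest outside the other lines, at most 1 per gene. The members and lists were chosen with earlier results of these data known. Promoters came from RefSeq, transcript structures from GENCODE 29, which held 99233 of the transcripts. Some items are not reported here.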

Additional observations from a re-analysis of the deposited data

How the results depend on the processing

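The 5 higher calls became 25 with DESeq2 and 2071 on the IGROV-1 replicate error, and 0 to 5 when a line was left out, with 3 without OVKATE, 3 without OVTOKO and 0 without COV362. The 0 lower calls became 56 and 933, and stayed 0 whichever line was left out. All 5 genes were called by DESeq2, on the replicate error, with other size factors, without a filter and without mitochondrial genes. The usage calls went from 1 to 12 on the replicate error and to 0 when 10 counts were required in every line, which left SCOC untested, and were 1 to 2 with a line or IGROV-1 library left out. Genes 4-fold above the next line numbered 118 to 188 and those 4-fold below 29 to 74 with a line or library left out, where OVTOKO (188 and 53) and IGROV-1 (74 lower) moved them most. Genes without a count, 9 in all, numbered 10 to 22 with a line left out (14 without OVTOKO, 22 without IGROV-1). The 14 transcripts numbered 3 with a minimum of 100 counts, 71 with 20, and 14 to 30 with a line left out. The fold, absence and share counts compare OVMANA with the highest or lowest other line. Leaving out a line can therefore only keep or raise them. Any further cause of these shifts was not tested. The median log2 difference over all genes was -0.73 with no filter and -0.02 on the replicate error, against -0.25, and -0.25 to -0.21 otherwise. The 3 markers and the 12 highest and 10 lowest genes kept their direction in edgeR, in DESeq2 and on the replicate error. Among the other named genes MT2A did not. Its log2 difference was -0.298 on the spread between lines and 0.413 on the replicate error. No paired analysis was possible because only IGROV-1 has replicates. At 1.60 CPM for 3 counts, genes low in all lines could not be ranked.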

Other observations

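Some genes of zinc handling were highest or lowest in OVMANA. These families were put together after the values were seen, so the counts are descriptions. Of 10 metallothionein genes, 8 were tested and none was called by edgeR on the spread between lines. OVMANA was the highest line for 6, against 10.6% of all genes. MT1M was at 360.1 CPM in OVMANA, 23.1 in COV362, 12.01 in COV504, 0.495 in OVKATE and 0 in the other 3 lines. MT1F was at 463 CPM in OVMANA and 182 in OVTOKO, with 3.04 (SK-OV-3) to 31.7 (OVKATE) elsewhere. MT2A, the most widely expressed member, was highest in COV504 (1561 CPM) and was at 632 in OVMANA. The 10 genes summed to 2664 CPM in OVMANA and 2402 in OVTOKO. They include the pseudogene MT1L (190 CPM in OVMANA, 287 in OVTOKO) and do not include MT1X, so the sum is not that of the whole family. Of 13 zinc importers, 10 were tested and none was called on the spread between lines. OVMANA was the highest line for 2 (SLC39A10 and SLC39A9) and the lowest for 3 (SLC39A4, SLC39A8 and SLC39A13), against 10.6% and 16.8% of all genes. SLC39A8 was at 0 in OVMANA against 1.16 (OVTOKO) to 59.8 CPM (SK-OV-3). SLC39A9 was at 21.4 CPM in OVMANA and 18.4 in IGROV-1, a narrow lead. Of 10 zinc exporters, 7 were tested and none was called on the spread between lines. OVMANA was the highest line for 3, against 10.6% of all genes. Besides SLC30A2 these were SLC30A6 (31.5 CPM, OVKATE 29.2) and SLC30A7 (29.4 CPM, COV504 26.3), both by a narrow lead.

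3 genes near APOE on chromosome 19, chosen after their values were seen, were highest in OVMANA, as 10.6% of all genes were. None was called by edgeR on the spread between lines (adjusted p 0.59 to 0.78). APOC1, another apolipoprotein, was at 362 CPM in OVMANA, 53.5 in IGROV-1 and at most 8.67 elsewhere. TOMM40, a mitochondrial import pore, was at 203 CPM in OVMANA and 139 in OVKATE, and NECTIN2, an adhesion receptor, at 214 and 107.

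PTAFR, CSF3R and EBI3 were among the 121 genes at least 4-fold above the next line and were chosen after their values were seen. PTAFR, the receptor for platelet-activating factor, was at 122 CPM in OVMANA and 7.91 in OVKATE. CSF3R, the receptor of the neutrophil growth factor G-CSF, was at 23.0 CPM and 0 in the other 6 lines. EBI3, a subunit of interleukin 27, was at 239 CPM against 25.1 in IGROV-1. None of the 3 was called by edgeR on the spread between lines. Of the 7 listed leukocyte markers, 5 were at 0 in OVMANA, the 7 summing to 2.14 CPM, while CD7, outside that list, was at 27.25 CPM.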
